A study of Rattus norvegicus with 10 samples.

Results

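Schwann cell and myelin genes were measured on Affymetrix RAE230 arrays in mammary glands taken at postnatal day 50 from female rats of the Sprague-Dawley stock. The genes were chosen by symbol as a set of 7 (Mbp, Scn7a, Ngfr, Pmp22, S100b, Sox10 and Cdh19), and all their probe sets on the array were used, which gave 6 of the 10411 genes named there. Those 6 genes had 8 probe sets, and Cdh19 was not found on the array under its symbol or its RefSeq transcripts. The signals of Mbp and Scn7a on these arrays were known when the set was chosen, so the values of the members are given as a description. There were 4 arrays of the SPI diet (replicates 2, 3, 4 and 5), 3 of the GEN diet (replicates 1, 3 and 5) and 3 of the CAS diet (replicates 1, 2 and 3), and all 3 diets were purified. GEN is genistein, an isoflavone of soy. From knowledge of the study, SPI is soy protein isolate and CAS is casein, the diet set against the others here. By its title the study asked how SPI or genistein changes the expression profile of mammary epithelium.

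Each array carried RNA pooled from the same gland of 2 animals. The labels mention 3 replicate targets per pool without tying arrays to pools, so the spread between arrays may be partly technical. The labels name epithelial cells as the source and the design text mentions both the gland and the colon. At least some markers each of luminal and basal epithelium, fat, fibroblasts, vessels and macrophages were above the filter described next. Other luminal, basal and fat markers were below it. In such bulk RNA, fewer cells of a type and less RNA per cell cannot be told apart. Signals are MAS5 units on a linear scale, and the array medians lay between 222.8 and 256.7. A probe set was tested if it was not among the 40% with the lowest mean log2 signal, a floor that lay at a geometric mean signal of 162. Of the 8 member probe sets 6 were tested, and Sox10 and 1 of the 2 probe sets of Mbp were below the filter.

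Schwann cells wrap the axons of peripheral nerves, and some of them form myelin, a stack of membrane that speeds conduction. Mbp codes for myelin basic protein, which holds the inner faces of the membrane together, and Pmp22 for a small membrane protein of compact peripheral myelin. Sox10 is a transcription factor that Schwann cells need at every stage and that activates myelin genes. Several of these genes are not restricted to nerve: S100b is also found in fat cells, Ngfr in myoepithelial cells, Pmp22 in fibroblasts and epithelium, and Sox10 in epithelial progenitors of the mouse mammary gland.

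The start-site sequences of Mbp and Scn7a are shown because these were the members with the highest log2 differences of both SPI and GEN from CAS, and because Sox10 is a member. They come from RefSeq on build GRCr8 and hold 250 bases before and 50 after an annotated start, and the table had windows for 5 of the 7 members. The core ACAAAG or ACAATG, letters that Sox proteins can bind, was searched on both strands and is in capitals. RefSeq gives 2 starts for Mbp, and the downstream start lies 79593 bases inside the gene. The upstream window lies on the plus strand at chr18:78130402-78130701, the downstream window on the plus strand at chr18:78209995-78210294 and the Scn7a window on the minus strand at chr3:71846235-71846534.
Mbp upstream start: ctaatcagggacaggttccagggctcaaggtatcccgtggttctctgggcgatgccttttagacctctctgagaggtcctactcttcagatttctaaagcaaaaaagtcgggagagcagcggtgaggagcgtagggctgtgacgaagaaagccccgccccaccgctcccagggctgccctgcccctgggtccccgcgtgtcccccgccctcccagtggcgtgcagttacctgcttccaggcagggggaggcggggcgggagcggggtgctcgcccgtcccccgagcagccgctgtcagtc
Mbp downstream start: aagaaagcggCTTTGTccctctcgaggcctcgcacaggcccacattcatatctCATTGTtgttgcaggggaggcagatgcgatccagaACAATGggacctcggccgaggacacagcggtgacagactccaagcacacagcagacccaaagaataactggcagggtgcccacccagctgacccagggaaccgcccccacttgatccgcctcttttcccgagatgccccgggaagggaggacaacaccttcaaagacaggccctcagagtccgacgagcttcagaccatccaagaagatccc
Scn7a start: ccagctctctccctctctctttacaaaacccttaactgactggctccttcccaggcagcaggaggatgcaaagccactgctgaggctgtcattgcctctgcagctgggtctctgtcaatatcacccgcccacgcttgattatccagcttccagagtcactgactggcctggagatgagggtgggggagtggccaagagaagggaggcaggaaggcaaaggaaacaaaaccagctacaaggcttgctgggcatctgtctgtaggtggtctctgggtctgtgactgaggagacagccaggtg
The downstream Mbp window held 3 matches, which began 240, 197 and 162 bases before the start and did not overlap each other. The upstream Mbp window and the Scn7a window held 0, as did those of Pmp22, S100b and Cdh19. The start used for Cdh19 lies 28179 bases inside its gene. Of all 33469 windows of this length, 29.1% held at least 1 match.

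Mbp was higher on SPI and on GEN than on CAS by its tested probe set, 1368810_a_at. Its signal was 383.8, 451.1, 406.4 and 486.5 on SPI 2, 3, 4 and 5. It was 631.7, 422.8 and 670.3 on GEN 1, 3 and 5, and 366.5, 276.7 and 180.2 on CAS 1, 2 and 3. Every SPI array and every GEN array stood above every CAS array, and the SPI and GEN arrays overlapped. The means were 432 ± 45.9 on SPI (SD, n = 4), 575 ± 133 on GEN (SD, n = 3) and 274 ± 93.2 on CAS (SD, n = 3). The log2 difference was 0.71 ± 0.23 (SE) for SPI minus CAS and 1.10 ± 0.25 (SE) for GEN minus CAS, 2 comparisons that share the CAS arrays. CAS 3 was the lowest array, and without it the SPI difference was 0.43 and the GEN difference 0.82.

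The other Mbp probe set, 1387341_a_at, gave a different order of diets. Its signal was 54.4, 42.2, 26.3 and 66.9 on SPI 2, 3, 4 and 5, then 93.1, 64.8 and 97.1 on GEN 1, 3 and 5, and 56.7, 79.9 and 41.6 on CAS 1, 2 and 3. All 3 diets overlapped here, with SPI 4 lowest and GEN 5 highest. Its log2 difference was -0.35 ± 0.40 (SE) for SPI minus CAS, 0.55 ± 0.43 for GEN minus CAS and -0.90 ± 0.40 for SPI minus GEN, in a fit without the filter. The probe sets of Mbp thus had the same sign for GEN minus CAS and opposite signs for SPI minus CAS. Without SPI 4 the SPI minus CAS value of 1387341_a_at was -0.10. Without CAS 3 it was -0.59, and the GEN minus CAS value was 0.31. Across the 10 arrays the log2 signals of the 2 probe sets had a Pearson r of 0.44, with no test. Which exons each probe set reads was not analysed here.

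**Figure D1:**
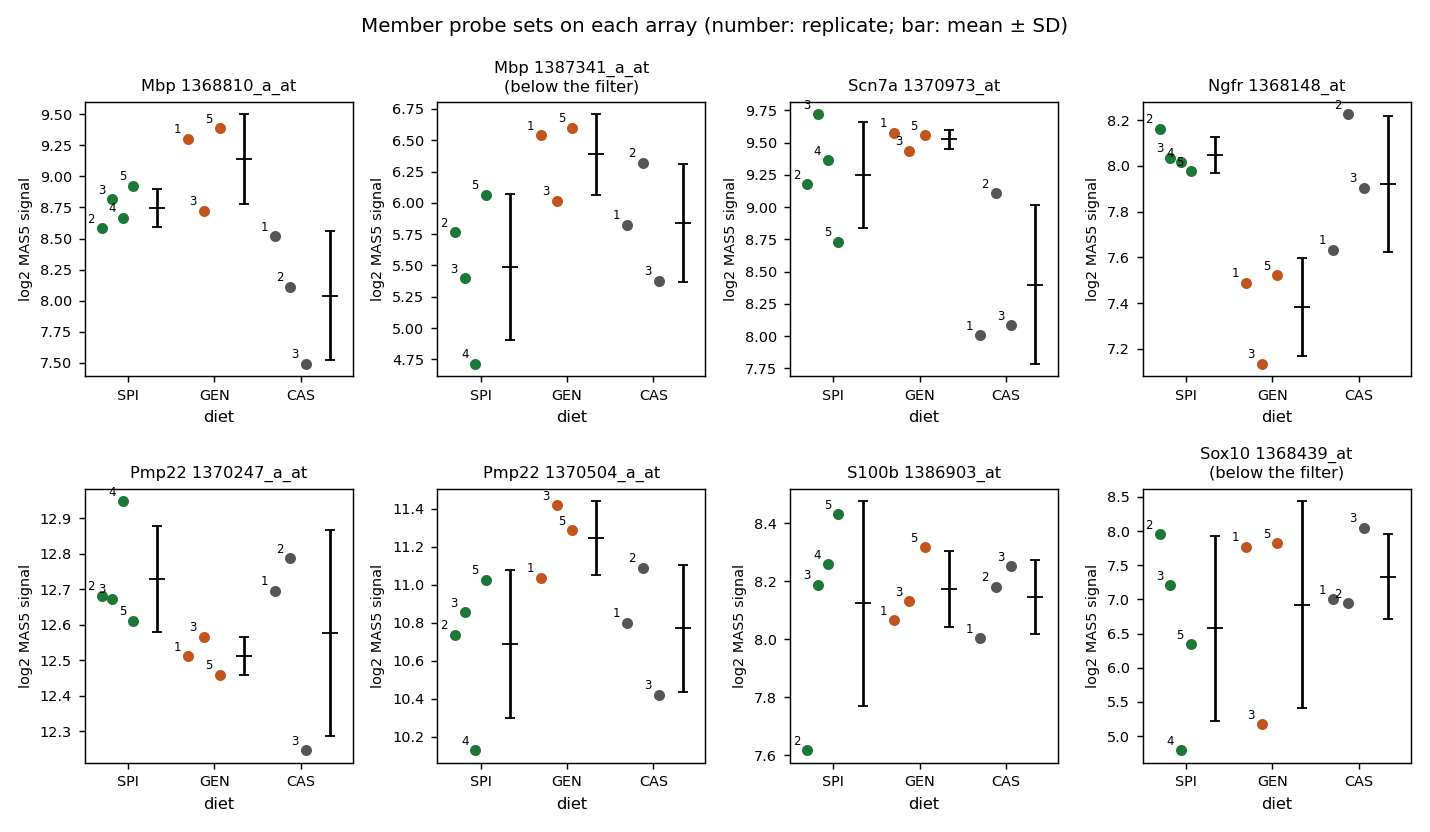
Log2 MAS5 signal (vertical axis) of the 8 member probe sets on each array of the SPI, GEN and CAS diets; points are arrays with their replicate numbers, and the bar beside them is the mean ± SD over 4, 3 and 3 arrays. Mbp 1368810_a_at has all SPI and GEN points above all CAS points, and Ngfr has all GEN points below the others.

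Pmp22 was bright on all arrays and its 2 probe sets also gave different orders. The signal of 1370247_a_at ranged from 6255.7 to 7902.0 on SPI, from 5628.7 to 6064.8 on GEN and from 4857.7 to 7069.1 on CAS. The SPI arrays were all above the GEN arrays, and CAS overlapped both. The signal of 1370504_a_at was 1706.6, 1853.6, 1120.0 and 2086.0 on SPI 2, 3, 4 and 5, then 2099.7, 2734.7 and 2498.0 on GEN 1, 3 and 5, and 1782.7, 2180.5 and 1371.0 on CAS 1, 2 and 3. Here the SPI arrays were all below the GEN arrays, the reverse of the other probe set. For SPI minus GEN the log2 difference was 0.22 ± 0.14 (SE) by 1370247_a_at and -0.56 ± 0.21 (SE) by 1370504_a_at. For GEN minus CAS it was -0.06 ± 0.15 and 0.48 ± 0.23, and for SPI minus CAS 0.15 ± 0.14 and -0.08 ± 0.21. SPI 4 was the highest SPI array by 1 probe set and the lowest by the other. Without SPI 4 the SPI minus GEN values were 0.14 and -0.37, and without CAS 3 the GEN minus CAS value of 1370504_a_at was 0.30.

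Sox10 had 1 probe set, 1368439_at, and it was too dim and too variable to order the diets. Its signal was 247.9, 147.5, 27.7 and 81.4 on SPI 2, 3, 4 and 5, then 218.6, 36.1 and 226.8 on GEN 1, 3 and 5, and 128.5, 122.9 and 265.4 on CAS 1, 2 and 3. The diets overlapped, with the lowest signals on SPI 4 and GEN 3. The 95% interval of the log2 difference reached from -2.42 to 0.90 for SPI minus CAS and from -2.19 to 1.37 for GEN minus CAS.

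Ngfr, the low-affinity receptor of the neurotrophins that marks immature and non-myelinating Schwann cells, was lowest on GEN. The signal of 1368148_at was 286.4, 262.4, 258.9 and 251.9 on SPI 2, 3, 4 and 5. It was 179.7, 140.7 and 183.7 on GEN 1, 3 and 5, and 198.5, 299.3 and 239.7 on CAS 1, 2 and 3. All GEN arrays stood below all others, and CAS 1 was the nearest to them. The log2 difference was -0.54 ± 0.20 (SE) for GEN minus CAS, 0.67 ± 0.19 (SE) for SPI minus GEN and 0.13 ± 0.19 (SE) for SPI minus CAS. The GEN minus CAS value had the opposite sign to that of Mbp and Scn7a on the same arrays.

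Scn7a codes for a sodium channel-like protein of Schwann cells and other glia that responds to salt concentration. The signal of 1370973_at was 579.2, 843.5, 658.7 and 424.9 on SPI 2, 3, 4 and 5. It was 763.7, 694.0 and 754.8 on GEN 1, 3 and 5, and 257.5, 551.2 and 271.6 on CAS 1, 2 and 3. The GEN arrays lay close together and above all CAS arrays, while SPI 5 was below CAS 2. The mean was 627 ± 174 on SPI (SD, n = 4), 738 ± 37.9 on GEN (SD, n = 3) and 360 ± 166 on CAS (SD, n = 3). The log2 difference was 0.85 ± 0.27 (SE) for SPI minus CAS and 1.13 ± 0.29 (SE) for GEN minus CAS. Leaving out 1 array at a time moved these to between 0.65 and 1.20, and to between 0.93 and 1.48.

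S100b, a calcium-binding protein of Schwann cells, did not separate the diets. Its probe set 1386903_at averaged 285 ± 63.2 on SPI (SD, n = 4), 289 ± 26.8 on GEN (SD, n = 3) and 284 ± 24.7 on CAS (SD, n = 3). The log2 difference was -0.02 for SPI minus CAS, with a 95% interval of -0.45 to 0.41, and 0.03 for GEN minus CAS, with an interval of -0.43 to 0.48. SPI 2, at 196.4, was the lowest array.

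Across all 9520 tested probe sets limma called 0 in each comparison at an adjusted p under 0.05, a background of 0.00%, so no member was called. At an unadjusted p under 0.05 there were 459 probe sets (4.82%) for SPI minus CAS, 561 (5.89%) for GEN minus CAS and 757 (7.95%) for SPI minus GEN. The test without an intensity trend gave 449, 537 and 761 at that level, the plain test per probe set gave 387, 547 and 673, and both called 0 after adjustment. Among the tested member probe sets 4 of 6 had a positive log2 difference for SPI minus CAS, with a median of 0.14, beside -0.01 over all tested probe sets. For GEN minus CAS it was 4 of 6 with a median of 0.25, beside -0.01, and for SPI minus GEN 2 of 6 with a median of -0.16, beside -0.00431. Both probe sets of Pmp22 are among the 6. By the brightest tested probe set of each gene, 3 of 5 genes were positive for GEN minus CAS, with a median of 0.03. On that basis it was 4 of 5 for SPI minus CAS (median 0.15) and 2 of 5 for SPI minus GEN (median -0.05). Scn7a ranked 25 from the top of the 9520 log2 differences in both SPI minus CAS and GEN minus CAS, and Mbp 1368810_a_at ranked 44 and 27. Their adjusted p in limma was 0.850 and 0.766 for Scn7a and 0.927 and 0.766 for Mbp. The other tested member probe sets ranked from 1802 to 6091 for SPI minus CAS and from 318 to 9282 for GEN minus CAS.

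For SPI minus CAS, 1 of the 6 tested probe sets (Mbp) had SPI arrays all above the CAS arrays, where 1.78% of all tested probe sets did, and 0 had them all below, against 2.83%. For GEN minus CAS, Mbp and Scn7a had GEN arrays all above (5.70% of all) and Ngfr all below (5.41% of all). For SPI minus GEN, Ngfr and Pmp22 1370247_a_at had SPI arrays all above (4.13% of all) and Pmp22 1370504_a_at all below (4.37% of all). These shares are given as description only, since the signals on these arrays were known when the genes were chosen.

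**Figure D2:**
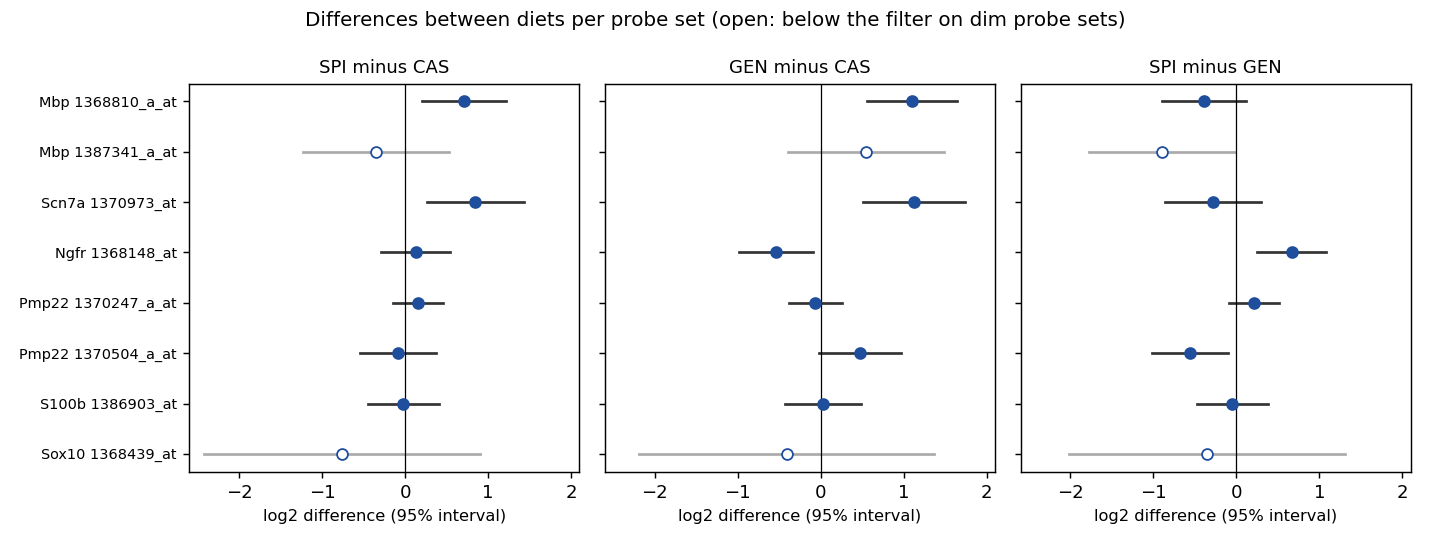
Log2 difference between diets (horizontal axis, point with its unadjusted 95% interval) for the 8 member probe sets, in 1 panel per comparison; open points are below the filter. Mbp 1368810_a_at and Scn7a lie right of 0 for SPI minus CAS and GEN minus CAS, and Ngfr lies left of 0 for GEN minus CAS at -0.54.

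The beta-actin 3'/5' signal ratio, which is higher where RNA is shorter, ran from 2.94 to 7.77 on SPI, from 2.83 to 5.15 on GEN and from 4.06 to 5.04 on CAS, with SPI 4 highest. Its correlations with the members were largest in size for 1 probe set of Pmp22 and 1 of Mbp, and no correlation passed after adjustment. For Pmp22 1370504_a_at the Pearson r with the ratio was -0.80 (permutation p = 0.00938, adjusted over 8 probe sets 0.0695, n = 10) and Spearman's rho was -0.65 (permutation p = 0.0485, adjusted 0.222). For Mbp 1387341_a_at the Pearson r was -0.76 (permutation p = 0.0174, adjusted 0.0695, n = 10) and rho was -0.64 (permutation p = 0.0555, adjusted 0.222). With diet means taken out, r was -0.81 and -0.74. When SPI 4 and GEN 5, whose ratios lay farthest from the median, were left out, r was -0.48 and -0.28 over 8 arrays. Leaving them out also narrows the range of the ratio, so how far the values rest on those arrays cannot be told. For Pmp22 1370247_a_at r had the opposite sign, at 0.52 (permutation p = 0.110, adjusted 0.292, n = 10, rho 0.39, r without SPI 4 and GEN 5 -0.09). Pmp22 1370504_a_at and Mbp 1387341_a_at had a Pearson r of 0.85 with each other over the 10 arrays.

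For Mbp 1368810_a_at, Scn7a and Ngfr no relation with the ratio was detected over 10 arrays. Pearson r was -0.17 for Mbp 1368810_a_at (permutation p = 0.585, adjusted 0.669, n = 10, rho -0.22, r without SPI 4 and GEN 5 -0.02). It was 0.05 for Scn7a (permutation p = 0.952, adjusted 0.952, n = 10, rho 0.18, r without the same arrays 0.07). For Ngfr r was 0.26 (permutation p = 0.472, adjusted 0.669, n = 10, rho 0.20, r without them 0.00487). With the ratio as a covariate, the log2 difference of GEN minus CAS was 1.08 for Mbp 1368810_a_at, 1.17 for Scn7a and -0.55 for Ngfr. For SPI minus CAS it was 0.72 for Mbp and 0.81 for Scn7a. The SPI minus GEN difference of Pmp22 1370504_a_at was -0.33 with the covariate, against -0.56 without it, that of Pmp22 1370247_a_at was 0.15 against 0.22, and that of Mbp 1387341_a_at was -0.60 against -0.90.

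**Figure D3:**
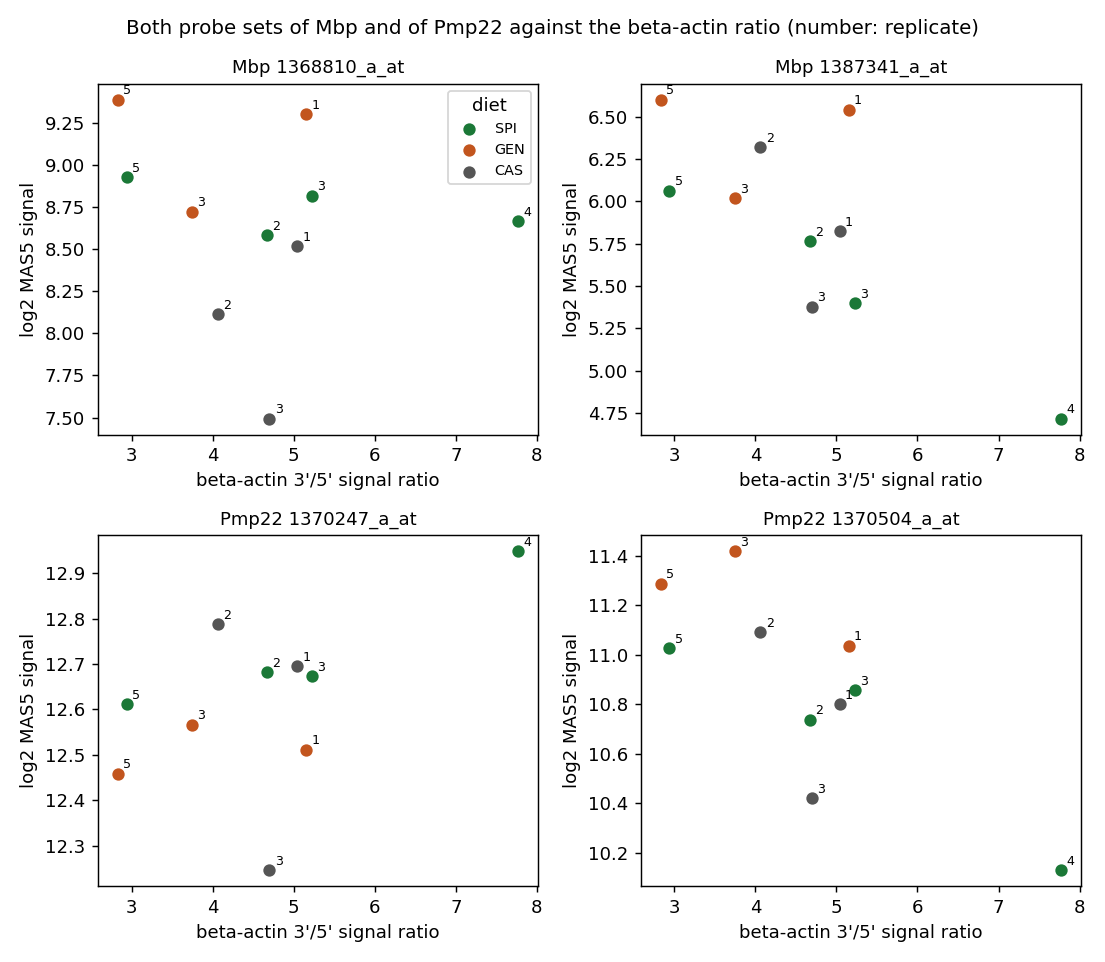
Log2 MAS5 signal (vertical axis) of both probe sets of Mbp and of Pmp22 against the beta-actin 3'/5' ratio (horizontal axis) on each array, coloured by diet and numbered by replicate. The right-hand panels slope down, with SPI 4 at the lower right at a ratio of 7.77, and the upper left panel shows no slope.

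The tested members did not move as 1 block across the arrays. Over the 15 pairs of tested member probe sets the median Pearson r of log2 signal was 0.07, 8 pairs were positive, and the median was 0.05 with diet means taken out. All points share the same 10 arrays and their scaling. Mbp 1368810_a_at and Scn7a had an r of 0.66, which was 0.03 with diet means taken out, and Scn7a and Ngfr had -0.13, which was 0.64 within diets. Among the 9520 tested probe sets, 218 others correlated more closely with Mbp than Scn7a did. The genes most like Mbp in Pearson r over the 10 arrays were Apod (0.91), Gpr15lg (0.90), Syncrip (0.89), Fabp3 (0.88), Fads2 (0.88) and Ndufb8 (0.86). Those most like Scn7a were Sparcl1 (0.95), Hnrnpu (0.92), Mpdu1 (0.90), Nrn1 (0.89), Mbtd1 (0.89) and Coq10b (0.89).

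Other genes of myelin and the Schwann lineage were taken from lists of myelin sheath genes, regulators, further Schwann cell genes, neurotrophins, axon genes and sodium channels. These lists hold 82 symbols, among them both the old and the current symbol of Adgrg6, and 67 were found on the array and 24 were tested, and limma called 0 of the 24 in any comparison. Of the 15 myelin sheath genes 4 were tested, and the others were below the filter or not found by symbol. For GEN minus CAS, Mag, an adhesion protein facing the axon, stood at 0.35 ± 0.26 (SE) and Prx, a scaffold of Schwann cell myelin, at 0.32 ± 0.22. The dystrophin-related Drp2 stood at -0.19 ± 0.27 and the myelin phosphodiesterase Cnp at -0.01 ± 0.20. For SPI minus CAS, 3 of 4 were positive, between 0.13 and 0.22, and Cnp stood at -0.31 ± 0.19. None of the 4 separated diets, and their log2 differences were smaller in size than those of Mbp 1368810_a_at in both comparisons with CAS.

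Among the regulators, 4 of 8 tested genes were positive for SPI minus CAS (median 0.000988) and 4 of 8 for GEN minus CAS (median 0.03). Erbb3, the receptor through which axonal neuregulin supports Schwann cells and which epithelium also carries, had signals of 209.4, 167.3, 148.6 and 117.4 on SPI 2, 3, 4 and 5. It had 211.5, 216.9 and 249.6 on GEN 1, 3 and 5, and 137.5, 163.2 and 176.4 on CAS 1, 2 and 3, so all GEN arrays were above both other diets. Its log2 difference was 0.51 ± 0.24 (SE) for GEN minus CAS and -0.52 ± 0.23 for SPI minus GEN, with adjusted p in limma of 0.825 and 0.603. Egr2, the transcription factor that turns on myelination, stood at 0.29 ± 0.27 for SPI minus CAS and -0.23 ± 0.29 for GEN minus CAS, with all 3 diets overlapping. Id4, an inhibitor of differentiation, stood at 0.21 ± 0.23 and 0.50 ± 0.25.

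Ligands of Ngfr were mostly dim or not found: of 8 neurotrophin genes 2 were tested. Ntf3, the ligand neurotrophin-3, stood at 0.15 ± 0.25 (SE) for SPI minus CAS and 0.00290 ± 0.27 for GEN minus CAS. Sort1, a co-receptor of Ngfr for pro-neurotrophins, stood at 0.31 ± 0.15 and 0.06 ± 0.16. Of the further Schwann cell genes, 5 of 7 were positive for SPI minus CAS and 3 of 7 for GEN minus CAS. Plekhb1, a membrane-bound protein of myelinating and sensory cells, had 321.7, 216.0, 180.0 and 335.6 on SPI 2, 3, 4 and 5, and 554.6, 513.9 and 733.4 on GEN 1, 3 and 5. All GEN arrays were above all SPI arrays, a log2 difference of -1.22 ± 0.23 (SE) for SPI minus GEN with an adjusted p in limma of 0.243. Against CAS, whose arrays had 330.3 to 446.1, it stood at -0.59 ± 0.23 for SPI and 0.63 ± 0.25 for GEN. Art3, a membrane ADP-ribosyltransferase, stood at -0.60 ± 0.17 for SPI minus CAS, with all SPI arrays below CAS and an adjusted p of 0.771.

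Most axon genes on the array were below the filter. Of 19 axon genes 17 were on the array and only Prph, an intermediate filament of peripheral neurons, was tested. It stood at 0.10 ± 0.24 (SE) for SPI minus CAS and -0.09 ± 0.26 for GEN minus CAS. The neurofilament genes Nefl, Nefm and Nefh and the sympathetic enzyme Th were below the filter. Of 13 other sodium channel genes Scn3a and Scn4b were tested. Scn7a stood at 0.85 for SPI minus CAS and 1.13 for GEN minus CAS, where Scn3a stood at 0.10 in both and Scn4b at 0.10 and 0.09.

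**Figure D4:**
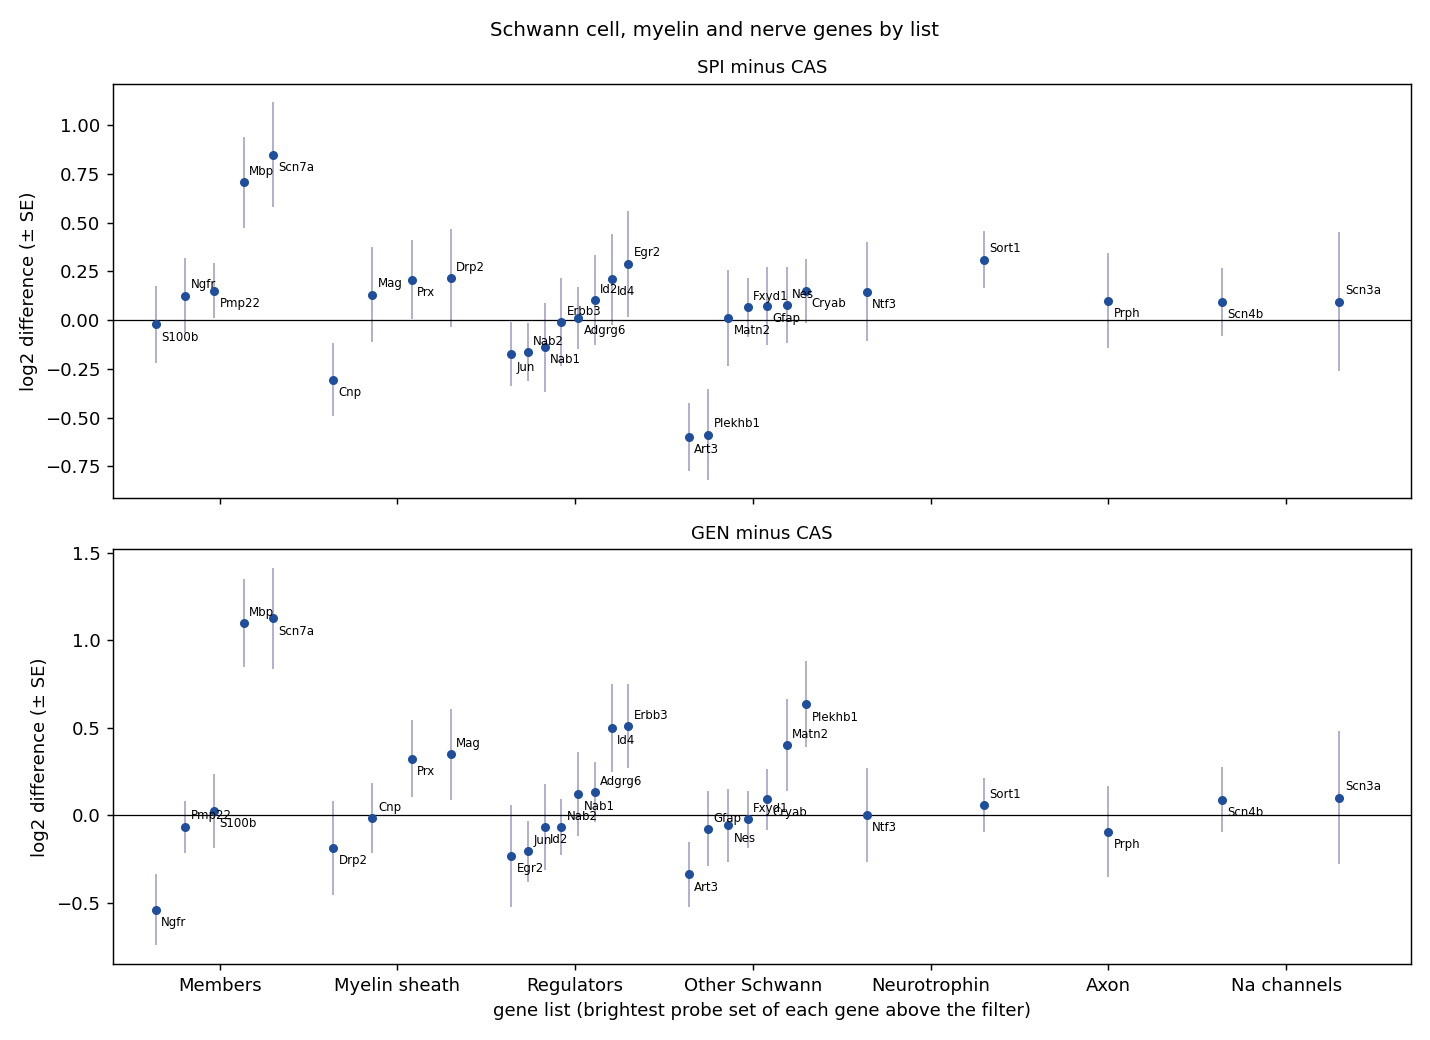
Log2 difference (vertical axis, point ± SE) of each tested gene of the members and of the 6 Schwann cell and nerve lists, for SPI minus CAS above and GEN minus CAS below; each gene is shown by its brightest probe set. Among the genes plotted, Mbp and Scn7a have the highest values in both panels, and Ngfr has the lowest in the lower panel.

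Markers of other cell types differed between arrays beside these values. The summed signal of 6 tested skeletal muscle genes was 1978 to 2561 on SPI, 2385 to 2734 on GEN and 2350 to 7307 on CAS, with CAS 1 alone above 2734. Without CAS 1 the GEN minus CAS difference was 1.34 for Mbp 1368810_a_at and 0.93 for Scn7a. For 9 luminal epithelial genes the sum was 8200 to 16913 on SPI, 18523 to 24528 on GEN and 13170 to 22443 on CAS. For 7 basal epithelial genes, a cell type that can carry Ngfr, it was 15685 to 22033, 13620 to 19801 and 13060 to 16563. The brightest genes weigh most in such sums. On SPI the basal genes Myh11 and Mylk averaged 6047 and 5250, where Krt5, Krt14 and Lgals7 averaged 886, 798 and 401. The adipocyte gene Fabp4 averaged 14760 on SPI. In the basal list 6 of 7 genes had a positive GEN minus CAS difference, with a median of 0.17. All GEN arrays stood above all CAS arrays for 3 of the 7 (Lgals7, Krt5 and Mylk), as for 5.70% of all tested probe sets. The largest differences were those of the galectin Lgals7 at 1.30 ± 0.37 (SE), which is above the values of Mbp and Scn7a, and of the keratins Krt5 at 0.91 ± 0.32 and Krt14 at 0.74 ± 0.49. The GEN and CAS arrays of Krt14 overlapped. For SPI minus CAS 5 of the 7 basal genes had a positive difference, with a median of 0.21. Myh11 stood at 0.39 ± 0.26 (SE), Mylk at 0.34 ± 0.14 and Cnn1 at -0.27 ± 0.25. Lgals7, Krt5 and Krt14 stood at 0.27, 0.08 and -0.08 in that comparison. For 6 adipocyte genes, a cell type that can carry S100b, the sum was 16023 to 20028, 17200 to 17840 and 14816 to 19044. For 10 fibroblast genes it was 57733 to 97232, 67917 to 84795 and 71699 to 118239, for 6 endothelial genes 14379 to 19469, 13089 to 14968 and 11706 to 16107, and for 6 macrophage genes 2944 to 6188, 4133 to 6582 and 3891 to 9448. Of 6 melanocyte genes, which share Sox10 with Schwann cells, only Mitf was tested, at 212 on SPI, 212 on GEN and 243 on CAS on average. Positive differences for SPI minus CAS and for GEN minus CAS numbered 0 and 7 of 9 luminal, 4 and 2 of 6 adipocyte, 0 and 0 of 6 muscle, 1 and 1 of 10 fibroblast, 6 and 3 of 6 endothelial and 0 and 1 of 6 macrophage genes, and limma called 0 of them. The fibroblast gene Pi16 had the GEN minus CAS difference of -1.41 ± 0.35 (SE), with all GEN arrays below all CAS arrays. No tested marker of these lists was listed below a signal of 1 on any array. The part of these cell types in the values of Mbp, Scn7a and Ngfr was not tested.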

How the data were processed

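RNA was measured on 10 arrays. Each probe set has 1 intensity per array in the table the authors deposited. MAS5 is the tool in the submitters' processing notes, which give no version. MAS5 signals are scaled per array, which hides differences in total RNA. Of 15923 probe sets, 57 controls were left out. Values under 1 were set to 1, log2 was taken, and the lowest 40% by mean log2 signal were left out, which left 9520. Symbols came from the platform annotation, with 12783 probe sets of 1 symbol, 312 of several and 2771 of none; 0 symbols changed through Entrez identifiers.

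All arrays entered 1 limma 3.58.1 fit (R 4.3.3, lmFit and eBayes with trend, 7 residual degrees of freedom, 12.9 with the prior), with Benjamini-Hochberg adjustment over all tested probe sets. The fit was tested on simulated data. The number of arrays limits the precision. Probe sets below the filter have values from a fit without it. Correlations with the actin ratio used 2-sided permutation tests. A gene of a list was read by its brightest tested probe set.

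The members and lists were chosen with earlier results of these data known. Genes were named by rule: every member probe set, any tested gene of the myelin, regulator, neurotrophin and axon lists, the 3 genes of each list with the largest SPI minus CAS or GEN minus CAS difference in size, and the 6 genes most like Mbp and Scn7a by Pearson r, also with diet means taken out. Alternatives covered the filter, scaling, floor, pseudocount, variance model, arrays in the fit, a replicate block, the actin ratio and each array left out. Same-numbered arrays of different diets did not deviate together: 1 of 6 pairs had a correlation over 0.1. These 6 ran from -0.18 to 0.16, and the 27 other pairs between diets ran from -0.40 to 0.30.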

Additional observations from a re-analysis of the deposited data

How the results depend on the processing

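Of the 24 differences of member probe sets between diets, 15 kept their sign under all 21 alternatives and 9 turned in at least 1, in 23 of 504 values. Mbp 1368810_a_at and Scn7a kept their sign for SPI minus CAS and GEN minus CAS throughout, with ranges of 0.43 to 0.95 and 0.82 to 1.34 for Mbp and of 0.65 to 1.20 and 0.93 to 1.48 for Scn7a. Ngfr kept its sign for GEN minus CAS (-0.68 to -0.39) and SPI minus GEN (0.54 to 0.75); for SPI minus CAS it was -0.02 without CAS 1. The signs that turned were those of small differences (Pmp22, S100b, Ngfr on SPI minus CAS) and of the dim Sox10. The median over the members that passed the filter for GEN minus CAS was 0.0261 with the lowest 20% left out, where Sox10 entered. Leaving out 1 array, the medians ran from 0.07 to 0.27 for SPI minus CAS, from 0.19 to 0.34 for GEN minus CAS and from -0.24 to -0.07 for SPI minus GEN.

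No member was called under any alternative. Counts of called probe sets ran from 0 to 2 for SPI minus CAS, from 0 to 1 for GEN minus CAS and from 0 to 1 for SPI minus GEN with 1 array left out, and 2 were called for SPI minus GEN in the fit of those 2 diets only. They are named after their values were seen: RT1-CE16 and RT1-Bb for SPI minus CAS and RT1-CE16 for SPI minus GEN without SPI 2, Apod for GEN minus CAS without CAS 1, and for SPI minus GEN Rpl37a without GEN 5, Il17b without CAS 2, a probe set without a symbol without CAS 3, and these last 2 in the fit of SPI and GEN only. With the replicate number as a replicate block 0 probe sets were called in each comparison. At an unadjusted p under 0.05 that block gave 270, 416 and 286, against 459, 561 and 757, and the member medians were 0.11, 0.24 and -0.13. The labels do not say that a number marks a shared batch. Signals below 162 limit what can be said of Sox10, of Mbp 1387341_a_at and of most axon and myelin genes.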

Other observations

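With diet means taken out, the genes most like Mbp 1368810_a_at over the 10 arrays were Fabp5, a fatty acid binding protein also found in injured peripheral nerve (Pearson r 0.95), Hdac2 (0.95), Snx18 (0.94), Psme4 (0.91), the glutamine synthetase Glul (0.90) and Natd1 (0.90). For Scn7a they were RGD1564887 (0.98), Ampd3 (0.98), the secreted matricellular protein Sparcl1 (0.98), the calcium release channel Itpr1 (0.96), Csf1 (0.96) and the cation channel Trpc1 (0.93). Of these, Sparcl1 was also among the 6 nearest to Scn7a before diet means were taken out, and 0 of the 6 of Mbp were. The values are the highest of 9520 probe sets over few arrays and are given with no test.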
